A study of Arabidopsis thaliana with 14 samples.

Results

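The THO/TREX complex is a set of proteins that joins the nascent messenger RNA while RNA polymerase II is still transcribing, and it links transcription to splicing and to export from the nucleus. TEX1 (THO3) and HPR1 (THO1) are subunits of it. The results below describe 66 Arabidopsis thaliana genes whose 3′ extension, the RNA that runs past the annotated end of the gene into the intergenic region, was higher relative to the gene body in roots of all 3 groups of THO mutants. They were chosen by a rule on the measured values. The ratio of extension reads to exon reads, summed over the samples of a group, had to be at least 1.5 times the ratio of Col-0 and pho1-7 pooled in both double mutants grown in pots, and at least 1.5 times the ratio of Col-0 in tex1-4 grown on plates. A minimum of 20 extension reads, summed over 14 samples, was also set. All 1462 deposited extensions had that many reads, the rule could be applied to 1447 of them (15 had 0 exon reads in a group), and 66 met it.

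RNA of roots was sequenced in 2 experiments. In pots of fertilized clay granules, 2 samples each came from 3-week-old roots of the wild type Col-0, of the single mutant pho1-7, and of the double mutants pho1-7tex1-4 and pho1-7hpr1-5. On Petri dishes with Murashige and Skoog salts, sucrose and agar, 3 samples each came from Col-0 and tex1-4. The roots from plates were 10 days old by the labels, while the study's methods give a younger age, and the hpr1 allele is hpr1-5 in the labels and hpr1-6 in the study. pho1-7 carries a T-DNA in PHO1, the gene of a phosphate exporter that loads the root xylem, and lacks its second exon, so both double mutants share that background and the tex1-4 plants on plates do not. tex1-4 is a T-DNA allele of TEX1. A single hpr1 mutant was not analysed here. The labels give paired-end libraries for plates and single-end libraries for pots, while the study describes those from pots as paired-end, so that growth, age and, by the labels, library type cannot be told apart between the experiments. The labels do not say whether replicates came from separate plants, and p-values then measure the spread between these samples only.

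Transcripts of RNA polymerase II end when the nascent RNA is cut downstream of a polyadenylation signal and receives a poly(A) tail, after which the polymerase leaves the template. In plants the near upstream element, of which AAUAAA is the best known form, lies shortly before the cut. Where the RNA is cut late or not at all, transcription runs on into the intergenic region and can reach the next gene. The 66 genes were of many kinds. In the RefSeq annotation, which held 65 of them, 59 were protein coding, 2 were small nucleolar RNAs, 1 was a microRNA precursor, 1 a pseudogene and 2 other non-coding RNAs. They were spread over the genome, from 9 on chromosome 3 to 16 on chromosome 5.

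Exon reads per sample ranged from 56068761 to 110039106 and extension reads from 174237 to 375168, so that the median extension had 46 to 85 reads in a sample. TEX1 had 12.4 to 14.8 CPM (exon reads scaled to library size) outside the tex1-4 libraries, 2.17 to 2.58 in tex1-4 on plates and 0.708 to 1.03 in pho1-7tex1-4, and HPR1 had 11.8 to 12.3 CPM in pho1-7hpr1-5 and 24.7 to 36.2 elsewhere. All 8 root markers were detected in every group, with a summed level of 565 to 1096 CPM. The 6 markers of green shoot tissue summed to 87.3 to 111 CPM in Col-0 and 51.2 to 60.7 in tex1-4 on plates. In pots they summed to 9.44 CPM in pho1-7tex1-4 replicate 1 and to 70.5 to 169 in the other 7 samples. No marker of either list was at 0 in a group, and the part of green tissue in the results was not tested. Leaving out pho1-7tex1-4 replicate 1 gave 63 genes under the rule, of which 62 were among the 66. Col-0 replicate 2 on plates stood apart from the other Col-0 libraries there. A chi-square statistic of the exon counts over genes was 132 and 106 per degree of freedom against replicates 1 and 3, where all other pairs of replicates had 12.7 to 46.1. Without this library 63 genes met the rule, of which 62 were among the 66. In bulk tissue, fewer cells of a type and less RNA per cell cannot be told apart.

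The extension of CP12-3 (AT1G76560), a gene of the CP12 family of small plastid proteins that bind Calvin cycle enzymes, is among those for which the study designed PCR primers. CP12-3 lies at chr1:28728206-28728976 on the plus strand of TAIR10.1 (RefSeq), ends 287 bases after the stop codon, and is followed after 21 bases by AT1G76570 on the same strand. The deposited extensions were defined against an older annotation (TAIR10.31), and the extension primers of all 4 genes with such primers fall inside the RefSeq gene. Behind the stop codon of CP12-3 the reference holds AATAAA 76 bases and AATGAA 139 bases away, shown here in capitals because these hexamers are the candidate signals near this extension, each in a window of 30 bases at chr1:28728754-28728783 and chr1:28728817-28728846.
CP12-3, AATAAA: ctgattctgattAATAAAtctcaatcgtcc
CP12-3, AATGAA: cgattgatttggAATGAAactctgcatttt
The forward and reverse extension primers of the 4 genes, each of which matched the genome at 1 place, are shown as the regions the study probed. On the RefSeq annotation they lie within the genes and do not mark where an extension begins. Those of CP12-3 lie 101 and 238 bases past its stop codon and those of SERAT2;2 197 and 380 bases, while the forward primers of FZL and AT2G41200 lie before the last annotated stop codon.
CP12-3 forward: accgttgttcatcgtgttcact
CP12-3 reverse: cggactcggcggatccagatta
FZL forward: cagctcgaagacgctatgcaa
FZL reverse: gaagggaaaacccgacattgtg
SERAT2;2 forward: tggagtttcctgtggttggtttc
SERAT2;2 reverse: gcaagcaatcctggatcctgac
AT2G41200 forward: tgcgatcgccgtcttcatta
AT2G41200 reverse: gcttctccgtgtatcaaacacat

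The values that chose the members are given next as a description, with no test. The folds to the pot controls ranged from 1.51 to 20.0 in pho1-7tex1-4 (median 2.45) and from 1.51 to 16.5 in pho1-7hpr1-5 (median 2.04), and the fold to Col-0 on plates ranged from 1.51 to 21.7 in tex1-4 (median 3.14). Over all extensions the medians were 0.988, 0.908 and 1.18. The smallest of the 3 folds was at least 2 in 25 members, at least 3 in 7 members and at least 5 in 5. Just inside the threshold were BIM3 (AT5G38860), of a family that partners a brassinosteroid transcription factor, with a smallest fold of 1.51, AT3G13277 with 1.51 and AT1G03935 with 1.51. Just outside were AT5G27860 with 1.47, AT3G10750 with 1.46 and AT2G33435 with 1.46. In the ratio model, 41 of 66 members passed in pho1-7tex1-4 (adjusted p under 0.1 and over 2-fold, raised, against 4.32% of all 1458 extensions fitted), 32 in pho1-7hpr1-5 (against 3.57%) and 52 in tex1-4 on plates (against 11.0% of 1430). The rule used these contrasts, and nothing is read from the counts.

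**Figure D1:**
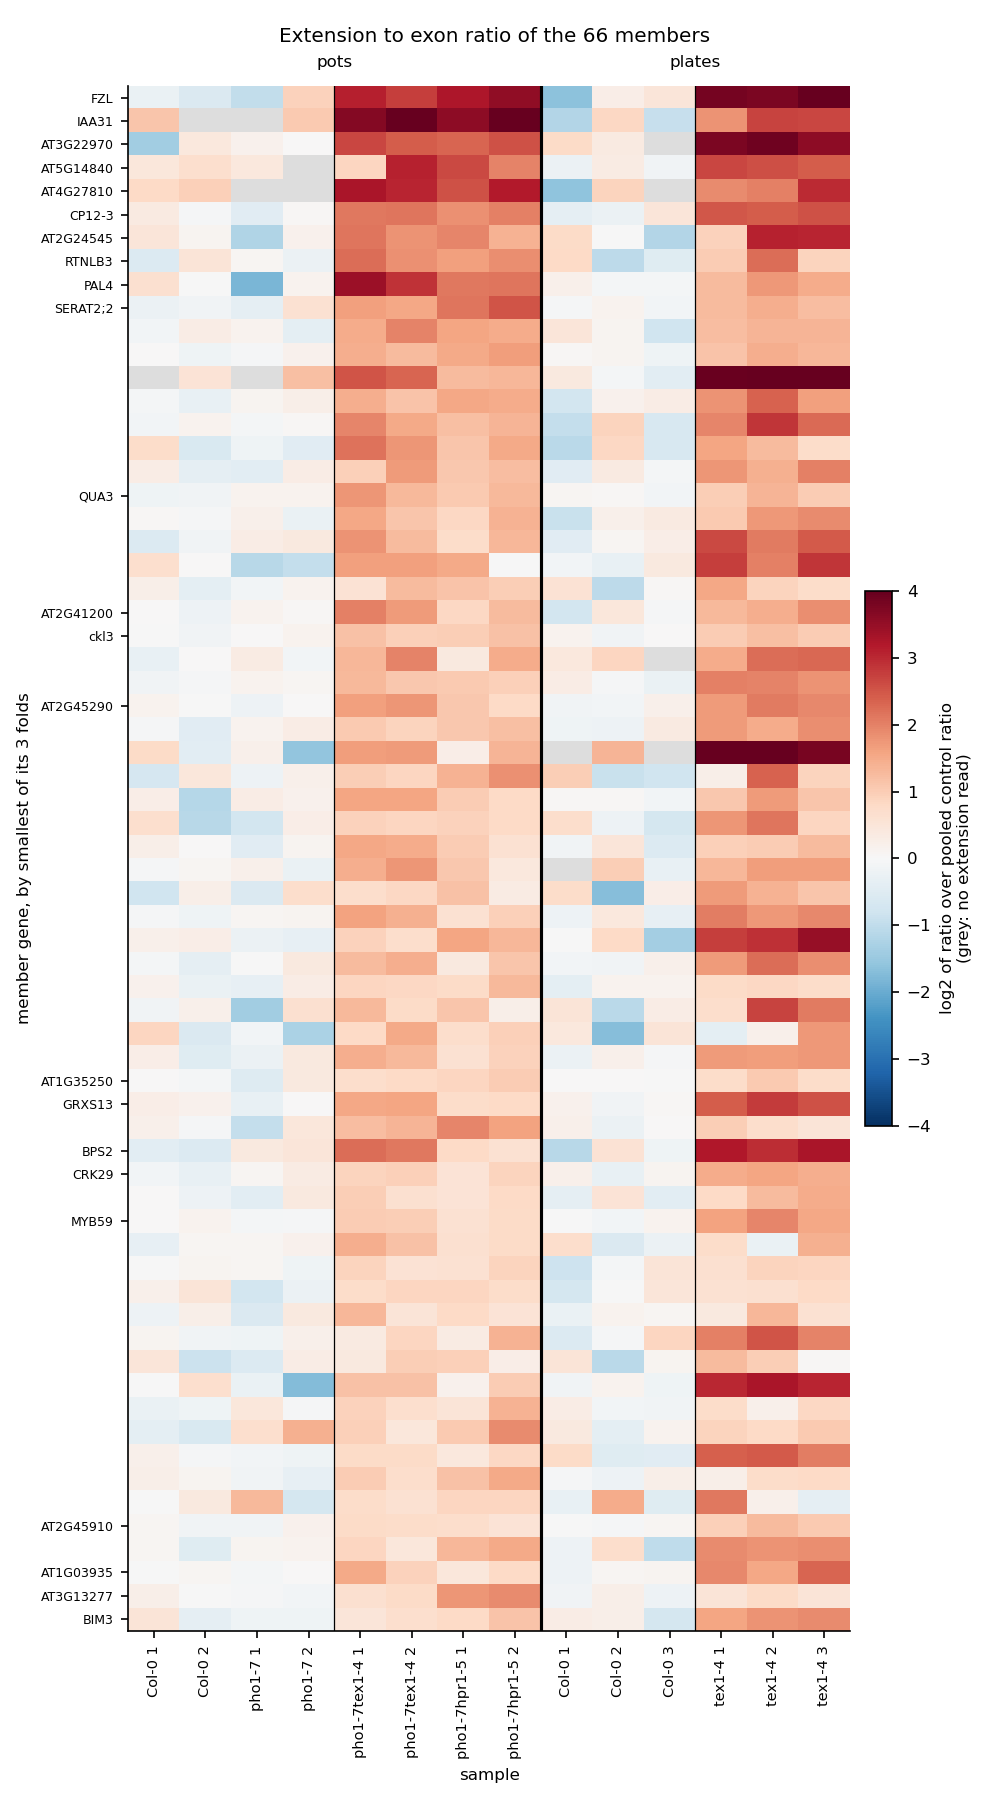
Extension to exon ratio of the 66 members (rows, by the smallest of their 3 folds) in each of the 14 samples (columns), as log2 of the ratio over the pooled ratio of the controls of the same experiment (Col-0 and pho1-7 in pots, Col-0 on plates). Gene names are given for the members with the most extension reads, for those with the largest and smallest folds, and for those plotted by sample. Red is higher and blue lower than the controls, and grey marks a sample with no extension read. In 55 members all 4 double-mutant samples lay above all 4 pot controls (7.37% of 1439 extensions). In 58 all 3 tex1-4 samples lay above all 3 Col-0 samples on plates (29.6% of 1435). The rule used these ratios.

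Sample by sample, 55 of 66 members had both double mutants above all pot controls, where 7.37% of 1439 extensions did, and 58 had tex1-4 above Col-0 on plates, where 29.6% of 1435 did. Both held in 50 members, and this joint count was not made over all extensions. The rule chose the members by these same ratios, so the counts are a description. Without Col-0 replicate 2 on plates the latter were 59, where 33.4% of 1435 extensions did, and the median fold of the members there was 3.17. The members that overlapped in both experiments were GCL1, HCAR and the microRNA precursor MIR863, named after their values were seen.

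In CP12-3 the extension amounted to 5.28% and 3.96% of the exon reads in Col-0 and to 3.02% and 4.29% in pho1-7. It amounted to 17.8% and 18.4% in pho1-7tex1-4, with 14.6% and 16.9% in pho1-7hpr1-5. On plates it was 1.23%, 1.32% and 2.16% in Col-0 against 8.74%, 8.43% and 9.15% in tex1-4. No mutant sample of CP12-3 overlapped a control of its experiment, and the folds were 4.40, 3.79 and 5.63. FZL (AT1G03160), which codes for a dynamin-like protein that shapes chloroplast membranes, had the highest smallest fold of all members. Its ratio was 0.415% and 0.340% in Col-0 and 0.256% and 0.945% in pho1-7, against 4.38% and 3.40% in pho1-7tex1-4, with 4.75% and 5.83% in pho1-7hpr1-5. On plates the ratio of FZL was 0.0794%, 0.301% and 0.352% in Col-0 and 3.58%, 3.39% and 5.14% in tex1-4. The 3 folds of FZL were 7.48, 10.6 and 16.3, with no overlap between mutants and controls.

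SERAT2;2 (AT3G13110) makes O-acetylserine, the precursor of cysteine, in mitochondria. Its ratio was 0.308% and 0.331% in Col-0, 0.285% and 0.553% in pho1-7, against 1.15% and 1.07% in pho1-7tex1-4, with 1.62% and 2.09% in pho1-7hpr1-5. On plates it was 0.284%, 0.323% and 0.271% in Col-0 and 0.714%, 0.815% and 0.688% in tex1-4. Both experiments were again without overlap, and SERAT2;2 was highest in the hpr1 samples. AT2G41200, an uncharacterized gene, had 5.74% and 4.96% in Col-0, 6.21% and 5.80% in pho1-7, against 23.1% and 18.3% in pho1-7tex1-4, with 10.1% and 13.7% in pho1-7hpr1-5. On plates AT2G41200 had 2.80%, 6.38% and 4.50% in Col-0 and 11.4%, 12.8% and 16.8% in tex1-4. Here the tex1 samples were the highest of the pots.

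**Figure D2:**
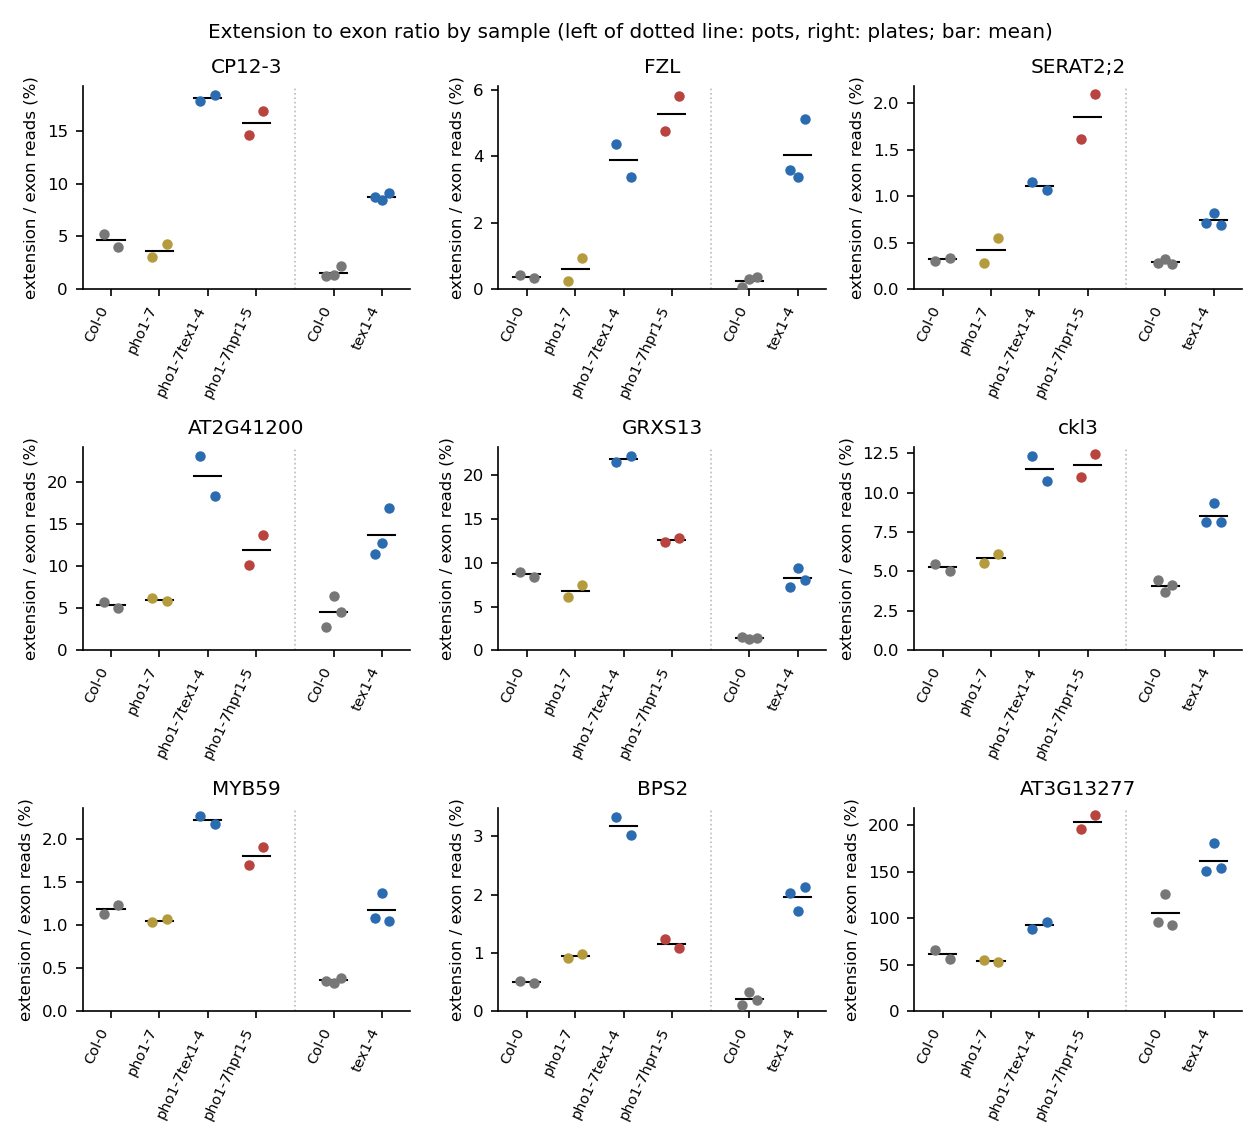
Extension reads as a percentage of exon reads in each sample (points) with the group mean (bar, 2 samples a group in pots, 3 on plates) for 9 of the named members, each on its own linear axis from 0. CP12-3 lay at 3.02 to 5.28% in the pot controls and at 14.6 to 18.4% in the double mutants, whereas BPS2 was high in pho1-7tex1-4 (3.02% and 3.32%) and lay near 1% in pho1-7hpr1-5 (1.08% and 1.23%).

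Among the members with the most extension reads, ckl3 (AT4G28880, a casein kinase I-like kinase) led with 10358 over the 14 samples. Its ratio was 5.50% and 5.00% in Col-0, 5.56% and 6.11% in pho1-7, against 12.3% and 10.7% in pho1-7tex1-4, with 11.0% and 12.5% in pho1-7hpr1-5, and on plates 4.43%, 3.71% and 4.12% in Col-0 and 8.13%, 9.35% and 8.15% in tex1-4. The 3 folds of ckl3 were close to each other at 2.05, 2.12 and 2.1. GRXS13 (AT1G03850), a plant-specific glutaredoxin, had a higher ratio in pho1-7tex1-4 (21.6% and 22.2%) than in pho1-7hpr1-5 (12.4% and 12.8%), against 6.04% to 8.97% in the pot controls. On plates it had 1.53%, 1.24% and 1.40% in Col-0 and 7.26%, 9.40% and 8.02% in tex1-4, and no group of mutants overlapped its controls. MYB59 (AT5G59780), a transcription factor of the R2R3 class, had 1.04% to 1.24% in the pot controls, 2.27% and 2.18% in pho1-7tex1-4, with 1.70% and 1.91% in pho1-7hpr1-5, and 0.352%, 0.329% and 0.390% against 1.09%, 1.38% and 1.05% on plates. The other most-read protein-coding members were AT2G45290 (a transketolase of the pentose phosphate pathway, folds 3.29, 1.95 and 3.76), AT2G45910 (a U-box protein kinase, 1.69, 1.53 and 2.11), CRK29 (a cysteine-rich receptor-like kinase, 1.90, 1.65 and 2.83), QUA3 (a Golgi methyltransferase of the pectin pathway, 2.81, 2.25 and 2.19) and AT1G35250 (a thioesterase, 1.69, 1.91 and 1.80).

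The largest fold was that of AT5G26260, a TRAF-like family protein, on plates. It had 8, 5 and 5 extension reads in Col-0 and 108, 188 and 157 in tex1-4, a fold of 21.7, with no overlap of the ratios. In pots AT5G26260 had few reads, 2 in Col-0 and 3 in pho1-7, against 17 in pho1-7tex1-4 and 6 in pho1-7hpr1-5 (folds 5.35 and 2.46). Some of the other large folds rested on very few control reads. IAA31 (AT3G17600), an Aux/IAA repressor of the auxin response, had 1, 0, 0 and 1 extension reads in the 4 pot controls and 5, 14, 5 and 8 in the double mutants. Its folds were 20.0 in pho1-7tex1-4 (95% counting interval 4.83 to 177) and 16.5 in pho1-7hpr1-5 (3.73 to 150), and on plates, with 2, 12 and 3 reads in Col-0 and 25, 51 and 62 in tex1-4, the fold was 5.58. AT4G27810, an uncharacterized gene with 2 control reads in pots, had folds of 8.80 (2.05 to 79.3) and 6.96 (1.52 to 64.6), and the pseudogene AT5G14840, with 3, had 6.16 (1.59 to 34.8) and 5.10 (1.22 to 29.8). AT3G22970, a gene of unknown function, had 2 reads in Col-0 on plates and a fold of 13.4 there (3.37 to 116), beside 5.73 and 5.45 in pots, where its controls had 2, 8, 10 and 10 reads. The intervals, from the exact conditional binomial (Clopper-Pearson), cover counting error only. They make no allowance for the choice of these members by the same folds, so nothing is read from their bounds. The glycine-rich protein gene AT4G10330 had 0, 2 and 0 reads in Col-0 on plates and 15, 28 and 14 in tex1-4, a fold of 19.5 (5.15 to 165). These 5 members had 3 or fewer control reads in a comparison.

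Further members are given as examples, with their folds in pho1-7tex1-4, pho1-7hpr1-5 and tex1-4 on plates. Enzymes of amino acid and tetrapyrrole metabolism included HEMG2 (a protoporphyrinogen oxidase) with folds of 2.52, 3.02 and 2.47, SIRB (the ferrochelatase of siroheme synthesis) with 2.74, 2.25 and 3.37, and SHM6 (a serine hydroxymethyltransferase) with 2.24, 2.00 and 3.82. PAL4, of the family that opens phenylpropanoid synthesis, had 8.63, 4.35 and 2.83, and RGP2, of the family that supplies arabinose for the cell wall, 1.72, 2.77 and 8.54. PAP26, a purple acid phosphatase that frees phosphate inside and outside the cell, had 1.70, 1.98 and 1.55. Genes of protein turnover were AIRP2 (a RING ubiquitin ligase) with 2.55, 1.69 and 3.26, RIN3 (a RING protein that binds the immune receptor RPM1) with 1.79, 2.05 and 1.71 and the F-box genes AT1G13570 with 2.50, 3.47 and 1.67 and AT4G27050 with 3.00, 1.87 and 2.53. LDL3, a homologue of the LSD1 histone demethylase, had 1.52, 2.69 and 3.60. RUS5 and AIRP2 are neighbours on one strand, so that the extension of RUS5 runs towards another member.

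In most members the extension itself was more abundant than in the controls, while the gene body was near its control level. The median change of the extension in CPM, on the log2 scale of group means, was 1.23 for pho1-7tex1-4, 1.06 for pho1-7hpr1-5 and 1.57 for tex1-4 on plates, against -0.015, -0.14 and 0.21 over all extensions, and the rule used these reads. The median change of the exon reads was -0.0041, 0.056 and -0.087, against -0.0056, 0.014 and -0.031 over all genes with an extension. The extension CPM was higher than in the controls in all 3 groups for 63 of 66 members, and for 386 of all 1447 extensions. In FZL the extension changed by 3.14, 3.68 and 3.77 and the gene body by 0.18, 0.26 and -0.28 (log2). In GRXS13 both were higher in pots, with 2.41 and 2.38 for the extension and 0.84 and 1.61 for the body. In ckl3 the extension changed by 0.53, 0.59 and 0.66 and the body by -0.53, -0.50 and -0.41, so that numerator and denominator of its ratio moved apart by similar amounts.

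**Figure D3:**
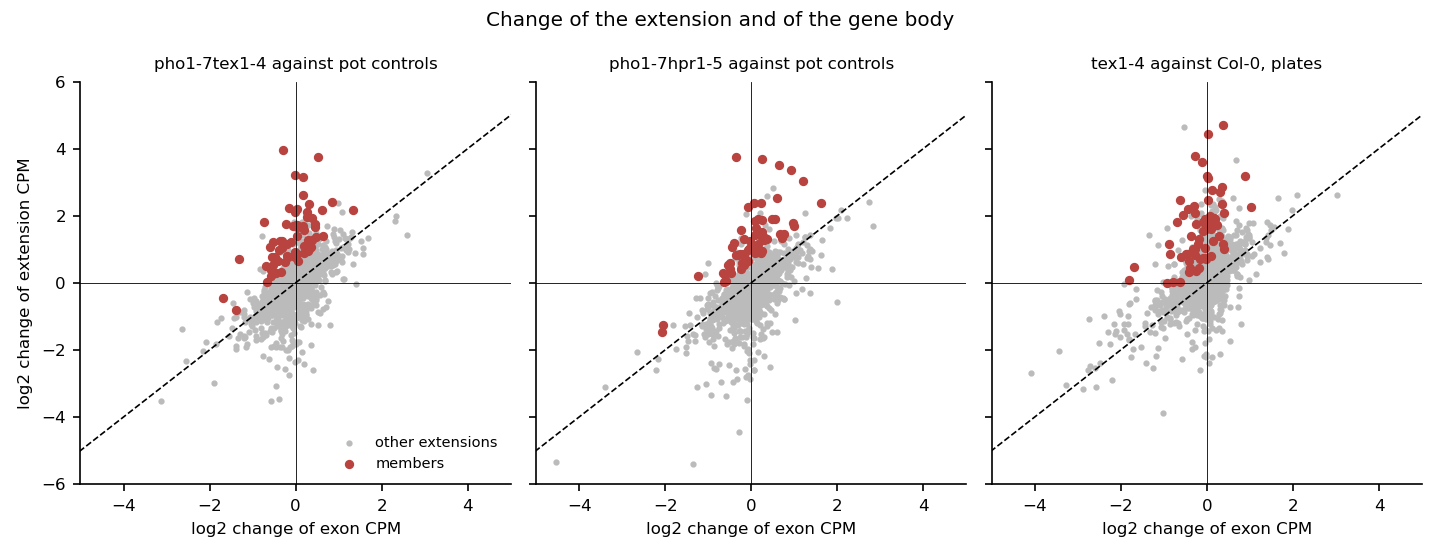
Log2 change of the extension CPM (vertical axis) against log2 change of the exon CPM of the same gene (horizontal axis) in each mutant group against its controls, for the members (red) and the other extensions with reads in both groups (grey). On the dashed line the ratio is unchanged, and all members lie above it because the rule chose them so. The members are spread about 0 on the horizontal axis (medians -0.0041, 0.056 and -0.087).

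The 3 members whose extension was not higher in all groups were 2 small nucleolar RNAs, which guide the chemical modification of other RNAs, and AT4G16260. In AT4G16260 the extension CPM changed by 0.016, 0.21 and -0.021 and the exon CPM by -0.67, -1.23 and -0.93 (log2). These values are for pho1-7tex1-4, pho1-7hpr1-5 and tex1-4 on plates, so its higher ratio came with a lower gene body. In the small nucleolar RNA AT1G03935 the exon level was 1.25 and 1.09 CPM in Col-0, 1.20 and 1.18 in pho1-7, against 0.337 and 0.395 in pho1-7tex1-4, with 0.322 and 0.238 in pho1-7hpr1-5. On plates it was 0.688, 0.619 and 0.552 in Col-0 and 0.182, 0.222 and 0.128 in tex1-4. All mutant samples were lower than all controls, and in edgeR's quasi-likelihood test, with p adjusted by Benjamini and Hochberg over all genes, the exon counts of AT1G03935 fell in pho1-7tex1-4 against pho1-7 (log2 change -1.68 ± 0.22 SE, adjusted p = 0.00177), in pho1-7hpr1-5 (-2.07 ± 0.24, adjusted p = 0.000737) and in tex1-4 on plates (-1.80 ± 0.28, adjusted p = 0.00639). The CPM of its extension changed by -0.45, -1.47 and 0.095 on the log2 scale. The small nucleolar RNA AT1G03502 had -1.18 ± 0.41, -1.78 ± 0.45 and -1.66 ± 0.48 (adjusted p = 0.0533, 0.02 and 0.042), at 0.0462 to 0.327 CPM, and these calls were lost without single libraries. Without pho1-7tex1-4 replicate 1 or 2 or pho1-7 replicate 1 the first was lost (adjusted p = 0.105, 0.251 and 0.25), without pho1-7hpr1-5 replicate 2 or pho1-7 replicate 1 the second (0.108 and 0.1), and without tex1-4 replicate 2 the third (0.138). In both genes the extension had more reads than the gene itself (180% and 526% in the pot controls). The rule chose a higher ratio with exon reads as denominator. Where the extension CPM did not rise, the exon CPM thus had to be lower. The falls of these genes are a description, and their p-values are no test independent of the rule.

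Over all members, 1 gene body rose and 4 fell in pho1-7tex1-4 against pho1-7, of 65 tested (2.13% of 21972 genes rose and 2.88% fell). In pho1-7hpr1-5 1 rose and 2 fell (2.73% and 2.46%), and in tex1-4 on plates 1 rose and 2 fell of 66 (2.33% and 3.09% of 21772). The median log2 changes of the bodies were 0.031, 0.060 and -0.087, against 0.020, 0.0082 and 0.0082 over all genes tested. The gene body is the denominator of the ratio that chose the members, so these values are a description. Without tex1-4 replicate 2, 1 body in place of 3 was called on plates.

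The control line pho1-7 was compared with Col-0 in pots to ask whether the ratio differed without a THO mutation, a comparison that the rule, which pooled these groups, did not use. The ratio model fitted extension and exon reads of each sample together with edgeR's quasi-likelihood test. Of 66 members 1 passed (0.960% of 1458 extensions did, in either direction), and 8 had an unadjusted p under 0.05 (108 of 1446 extensions did). The median log2 difference was -0.022, against -0.014 over all extensions. The member that passed was AT4G16260, a beta-1,3-glucanase of the glycosyl hydrolase family. Its ratio was 0.163% and 0.140% in Col-0, 0.338% and 0.569% in pho1-7, against 0.416% and 0.295% in pho1-7tex1-4, with 0.445% and 0.790% in pho1-7hpr1-5, and on plates 0.234%, 0.136% and 0.198% in Col-0 and 0.334%, 0.313% and 0.367% in tex1-4. The pho1-7 samples thus lay above Col-0 and among the double mutants. The log2 difference between pho1-7 and Col-0 was 1.54 ± 0.28 (SE, adjusted p = 0.00176), and without pho1-7 replicate 2 it was 1.15 and was not called (adjusted p = 0.325). The exon counts of AT4G16260 were lower in pho1-7 than in Col-0 (log2 change -1.77 ± 0.22, adjusted p = 0.00463, edgeR), and the fold of this gene in pho1-7tex1-4 depended on which control was taken: against pho1-7 alone its log2 ratio change was -0.41.

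The double mutants were compared with each other in pots to ask whether the loss of TEX1 and of HPR1 had effects of the same size on these extensions. The rule did not use this difference, but it asked for at least 1.5-fold in both double mutants. Extensions raised in a single double mutant were thus left out, which limits how far members could differ. The log2 difference between pho1-7hpr1-5 and pho1-7tex1-4 ranged from -1.43 to 1.13 over the members and from -2.90 to 2.86 over all extensions. The medians were -0.20 and -0.13. The fold was higher in pho1-7hpr1-5 in 21 of 66 members (31.8%) and in 467 of all 1447 extensions (32.3%), so that the split of the members was near that of all. By the ratio model 3 of 66 passed (5.21% of 1458 extensions), a share of members near that of all. Without the threshold of 2-fold 16 members passed, where 13.4% of the extensions did. BPS2 (AT2G46080), a homologue of the BYPASS1 regulator of root-to-shoot signalling, had 0.525% and 0.484% in Col-0 and 0.916% and 0.985% in pho1-7, against 3.32% and 3.02% in pho1-7tex1-4, with 1.23% and 1.08% in pho1-7hpr1-5. On plates it had 0.104%, 0.331% and 0.195% in Col-0 and 2.03%, 1.72% and 2.13% in tex1-4. BPS2 was thus highest in the tex1 samples, and the log2 difference was -1.43 ± 0.22 (adjusted p = 0.000126). PAL4 (AT3G10340) had 1.64% and 1.13% in pho1-7tex1-4, with 0.651% and 0.677% in pho1-7hpr1-5, 0.0426% to 0.236% in the pot controls and 0.181% to 0.224% against 0.461% to 0.640% on plates. Its difference of -1.01 ± 0.25 (adjusted p = 0.0112) was lost without pho1-7tex1-4 replicate 1 (-0.76) and without pho1-7hpr1-5 replicate 1 (-0.98), and DESeq2 gave an adjusted p of 0.354. The non-coding RNA AT3G13277 differed the other way, with 196% and 211% in pho1-7hpr1-5, 88.5% and 96.6% in pho1-7tex1-4, 66.4% and 56.2% in Col-0 and 55.0% and 52.8% in pho1-7. On plates it had 96.4%, 127% and 92.8% in Col-0 and 152%, 181% and 154% in tex1-4. The difference of AT3G13277 was 1.13 ± 0.10 (adjusted p = 1.19e-07). Without pho1-7hpr1-5 replicate 2, 6 members passed in place of 3.

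**Figure D4:**
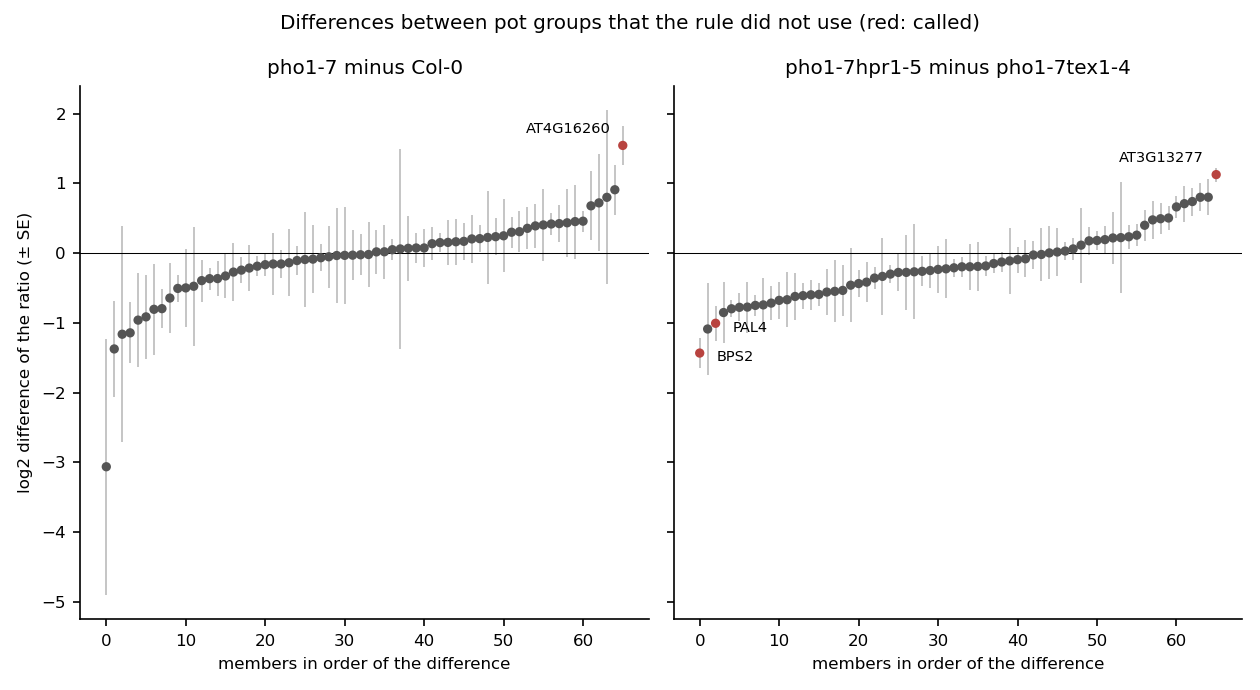
Log2 difference of the extension to exon ratio between pho1-7 and Col-0 (left) and between pho1-7hpr1-5 and pho1-7tex1-4 (right) in pots, for the 66 members in order of the difference, with the SE of the fit as bars and called members in red. The left panel has 1 called member, AT4G16260 at 1.54, and the right panel 3, from BPS2 at -1.43 to AT3G13277 at 1.13.

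The genes downstream were examined because RNA that runs past the end of a member can enter the next gene. They were not used by the rule, but they were measured in the same libraries, and whether a read was counted both in an extension and in a downstream gene was not tested. In RefSeq the next gene lay on the same strand for 39 of 65 members (60.0%, against 61.6% of all extensions), and the near edge of the next gene on either strand was less than 500 bases away, or overlapped, for 42 (64.6%, against 51.5%). The median gap was 307 bases, against 464. All 39 same-strand neighbours were tested in pots and 37 on plates. Against pho1-7, 7 of 39 rose in pho1-7tex1-4 and 1 fell, where 2.13% of all genes rose and 2.88% fell, and 8 rose in pho1-7hpr1-5 and 1 fell, where 2.73% rose and 2.46% fell. In tex1-4 on plates 6 of 37 rose and none fell in either edgeR or DESeq2, where 2.33% rose and 3.09% fell, and 7 rose without Col-0 replicate 2. The call of AT5G38870, downstream of BIM3, was lost on plates without Col-0 replicate 1 or 3 or tex1-4 replicate 2 or 3. In pho1-7hpr1-5 its log2 change was 0.95 without pho1-7hpr1-5 replicate 2. The change of AT5G65820 there was 0.94 without pho1-7hpr1-5 replicate 1 and 0.92 without pho1-7 replicate 1, under 2-fold. The other raised same-strand calls were kept in every alternative. On plates 22 of the 37 had an unadjusted p under 0.05, as did 318 of 731 same-strand neighbours of all extensions. Of the same-strand neighbours of all extensions, 32 of 748, 32 of 748 and 27 of 731 rose. The median log2 changes of the members' neighbours were 0.26, 0.31 and 0.17, against 0.020, 0.0082 and 0.0082 over all genes. In pho1-7 against Col-0, without a THO mutation, 1 of 39 rose (FAF2, downstream of FZL, 0.578% of all genes rose) and 1 fell (AT5G15660, downstream of RGP2, 1.29% fell), with a median of 0.059.

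For the neighbours on the opposite strand, 17 of 26 passed the filter on low counts in pots and 15 on plates. None rose and 2 fell in pho1-7tex1-4, 1 rose and 1 fell in pho1-7hpr1-5, and none rose and 1 fell in tex1-4 on plates. DESeq2 called 0, 1 and 0 as raised and 2, 0 and 1 as lowered, and the fall of AT1G03495 in pho1-7hpr1-5 was the call it lost (adjusted p = 0.114). Of these neighbours 9, 14 and 7 had an unadjusted p under 0.05 in edgeR. For the neighbours of all extensions, on either strand, 1137, 1137 and 1121 were tested. Among them edgeR called 37, 41 and 39 as raised and 55, 32 and 35 as lowered, and 564, 524 and 480 had an unadjusted p under 0.05. The difference between strands was not tested.

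**Figure D5:**
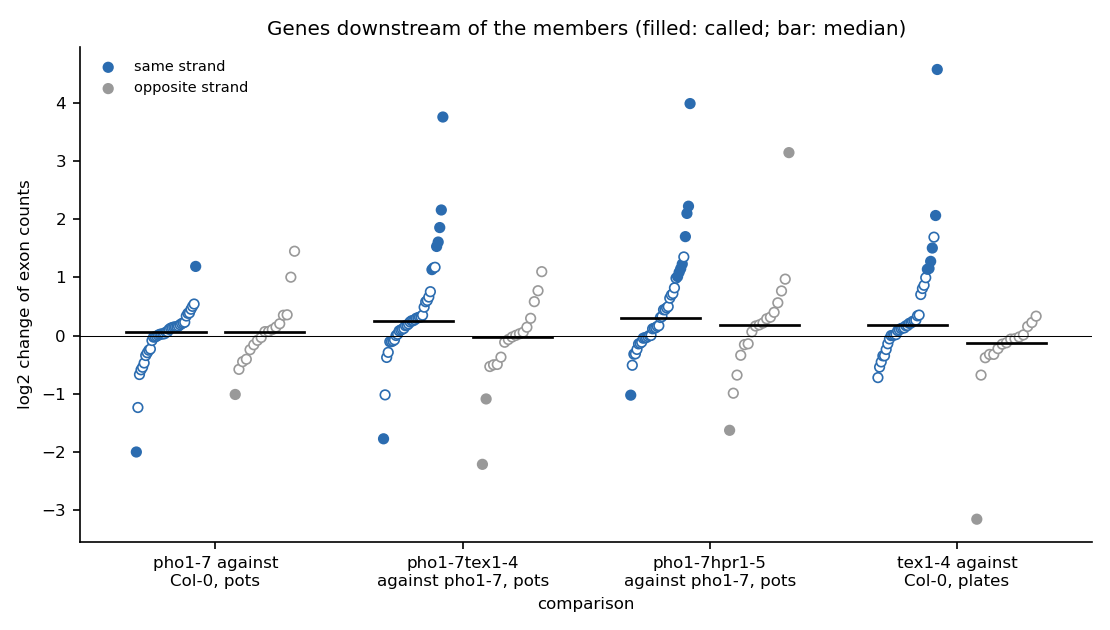
Log2 change of the exon counts of the annotated gene next downstream of each member, on the same strand (blue) or the opposite strand (grey), in 4 comparisons, with called genes filled and the median as a bar. On the same strand 7, 8 and 6 neighbours rose in the 3 THO mutant groups and 1 in pho1-7 against Col-0, and the highest point in each mutant comparison is AT1G20150 at 3.76, 3.99 and 4.57.

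The largest change was downstream of ATSBT5.2 (AT1G20160), which codes for a subtilisin-like protease. Its neighbour AT1G20150, which starts 279 bases after the annotated end, had 0.441 and 0.353 CPM in Col-0, 0.412 and 0.168 in pho1-7, against 3.88 and 3.92 in pho1-7tex1-4, with 4.78 and 4.37 in pho1-7hpr1-5. On plates AT1G20150 had 0.0666, 0.071 and 0.0409 CPM in Col-0 and 1.68, 1.52 and 1.13 in tex1-4. The neighbour rose by 3.76 ± 0.29 and 3.99 ± 0.29 on the log2 scale in pots (SE, adjusted p = 0.000228 and 0.000154) and by 4.57 ± 0.31 on plates (adjusted p = 0.000591), while the ratio of ATSBT5.2 itself was 0.297% to 0.352% in the pot controls and 0.739% to 1.25% in the double mutants. Downstream of MYB59, AT5G59770 had 10.9 and 11.2 CPM in Col-0, 7.82 and 7.36 in pho1-7, against 35.5 and 32.3 in pho1-7tex1-4, with 35.3 and 29.7 in pho1-7hpr1-5. It rose in both (2.16 ± 0.10 and 2.1 ± 0.10, adjusted p = 3.59e-05 and 8.13e-05). On plates AT5G59770 had 20.9, 16.8 and 20.2 CPM in Col-0 and 20.0, 23.1 and 22.0 in tex1-4, which overlapped, although the extension of MYB59 did not.

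Downstream of CP12-3, AT1G76570 had 3.21 and 3.04 CPM in Col-0, 4.16 and 4.00 in pho1-7, against 9.00 and 8.90 in pho1-7tex1-4, with 13.1 and 13.4 in pho1-7hpr1-5, a rise of 1.13 ± 0.09 and 1.70 ± 0.09 (adjusted p = 0.000218 and 8.13e-05). On plates it had 2.74, 2.83 and 2.53 CPM in Col-0 and 3.92, 4.25 and 5.04 in tex1-4, without overlap but under 2-fold (0.71). The neighbour of SERAT2;2, ABCC7 (AT3G13100, an ATP-driven transporter), which overlaps its annotated end, had 65.6 and 66.0 CPM in pho1-7hpr1-5 against 26.4 to 29.7 in the pot controls (1.23 ± 0.07, adjusted p = 8.26e-05). In pho1-7tex1-4 ABCC7 had 40.2 and 38.5 CPM, and on plates 16.0, 21.4 and 16.9 in Col-0 and 32.3, 32.0 and 34.7 in tex1-4, so that the order of the pot groups was that of the extension of SERAT2;2. CRK28 (AT4G21400), a receptor-like kinase that overlaps the end of its paralogue CRK29, rose in pho1-7tex1-4 (96.9 and 95.7 CPM, against 36.7 to 45.0 in the pot controls, 1.16 ± 0.07, adjusted p = 8.93e-05) and on plates (29.2, 31.4 and 37.9 against 15.7, 14.7 and 14.3, 1.14 ± 0.11, adjusted p = 0.00137). In pho1-7hpr1-5 CRK28 had 52.9 and 55.0 CPM. How reads shared by the tandem copies were counted is not given in the sources used here.

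BPS2, whose ratio differed between the double mutants, lies 48 bases before MPK12 (AT2G46070), a mitogen-activated protein kinase. MPK12 had 1.61 and 1.58 CPM in Col-0, 1.90 and 2.27 in pho1-7, against 7.56 and 7.57 in pho1-7tex1-4, with 3.03 and 2.65 in pho1-7hpr1-5. On plates it had 1.01, 1.17 and 1.25 CPM in Col-0 and 4.48, 5.20 and 4.66 in tex1-4. MPK12 rose in pho1-7tex1-4 (1.86 ± 0.13, adjusted p = 0.000164) and on plates (2.06 ± 0.14, adjusted p = 0.000584), had 0.44 ± 0.14 in pho1-7hpr1-5, and differed between the double mutants in the same direction as the extension of BPS2 (-1.41 ± 0.13, adjusted p = 0.000343). Of the 56 downstream genes tested, 2 were called between the double mutants, where 4.09% of 21972 genes were. PIP5K5, downstream of AT2G41200 by 23 bases and of the family that makes phosphatidylinositol bisphosphate, had 12.2 and 11.5 CPM in pho1-7tex1-4, with 6.01 and 6.83 in pho1-7hpr1-5, against 2.85 to 4.08 in the pot controls. FAF2, 2181 bases downstream of FZL, was the same-strand neighbour that fell in both double mutants, with 1.10 and 0.916 CPM in pho1-7, against 0.337 and 0.263 in pho1-7tex1-4, 0.469 and 0.523 in pho1-7hpr1-5 and 0.497 and 0.384 in Col-0. Its levels in the double mutants were near those of Col-0. Without pho1-7 replicate 1 or pho1-7hpr1-5 replicate 1 the log2 change of FAF2 in pho1-7hpr1-5 was -0.89 or -0.95 and was not called. In all, 16 of the 56 members with a tested downstream gene, on either strand, had it called in at least 1 of the 3 mutant comparisons (28.6%), against 14.5% of 1178 extensions. The counts of 2 overlapping genes were made with a strand setting that is not given in the sources used here, so that reads of SERAT2;2 and ABCC7 or of CRK29 and CRK28 may be divided in another way.

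The annotated ends of the members were searched for AATAAA on the strand of the gene. In the last 30 bases before the RefSeq end, 4 of 65 members held it (6.15%, 95% Clopper-Pearson interval 1.70 to 15.01), against 4.94% of 1436 genes with an extension. In the last 50 bases it was 12.3% against 8.43%. The interval held the value over all genes, and a match is a description of the sequence only, since the extensions were defined against the ends of another annotation. AATGAA was in the last 30 bases of 0 of 65 members and of 1.81% of all. The 4 ends with AATAAA (capitals) are shown with 14 to 18 bases between hexamer and end, and lie at chr1:7758000-7758029, chr3:17390931-17390960, chr3:17511829-17511858 and chr4:12444518-12444547 of TAIR10.1, all on the plus strand.
SHM6: cggttataAATAAAttgttttggactcgtt
PLC9: aaagtaaaAATAAAagcggatctagttccg
AT3G47510: attgttAATAAAccatatatatggatgata
AT4G23950: tagaaaaccaAATAAAttgaaaaccaaaaa
From the stop codon to the annotated end the members had a median of 528 bases, against 346 in all genes with an extension (59 and 1308 genes with a coding sequence). A single annotated 3′ end was given for 33 of 65 members and for 893 of 1436 genes. The median control ratio, with neither count divided by length, was 1.40% in members and 10.7% over all extensions. The ratio of Col-0 was higher in pots than on plates for 51 of 66 members, and for 1284 of all 1447. The rule divided by the control ratios, so a choice by high fold favours low ones, and both comparisons are a description.

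Of a list of 15 genes for THO/TREX and export, 1 was called in each mutant comparison, TEX1 in both tex1 groups (log2 change -3.95 ± 0.15 in pots and -2.60 ± 0.10 on plates) and HPR1 in pho1-7hpr1-5 (-1.54 ± 0.06). Of 22 genes for 3′ end formation and termination, edgeR and DESeq2 called 0 in each, with 14, 10 and 12 at an unadjusted p under 0.05. Such p-values were common in these fits. Of the neighbours of all extensions 564 of 1137, 524 of 1137 and 480 of 1121 had one. The PHO1 counts rose in pho1-7tex1-4 against pho1-7 (1.06 ± 0.09, adjusted p = 0.000338), from 200 and 188 CPM to 379 and 426, and had 0.60 ± 0.09 in pho1-7hpr1-5.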

How the data were processed

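The authors deposited whole-number read counts for genes and for 3′ extensions, made from strand-specific poly(A)+ libraries with HISAT2 and HTSeq, as the submitters' processing notes name them, against TAIR10.31 (versions and strand setting not given in the sources used here). The authors assembled extensions from these same libraries from covered bins in intergenic regions, so the extensions are not an independent set. Of the reads, 17.1 to 19.6% were in HTSeq's summary rows and were left out. Ratios were fitted in edgeR 4.0.16 (R 4.3.3): extension and exon counts of each sample in 1 quasi-likelihood model with a term per sample and exon totals as library sizes, extensions with at least 10 reads, and Benjamini-Hochberg adjustment over all extensions. Gene counts were fitted likewise over all genes with filterByExpr and TMM factors. A call needed adjusted p under 0.1 and over 2-fold, as in the study. CPM used TMM-scaled totals. DESeq2 1.42.0 was an alternative. Models were tested on simulated data. Folds of the rule have no test. The text names the 4 genes with extension primers, the 10 members with most reads, the 5 with the largest smallest fold, members or neighbours called (up to 5 or 6 by adjusted p), the 3 on either side of the threshold, and gene bodies called in all 3 groups. Other members named as examples of a function, and AT5G26260, AT4G10330, AT1G03495, AT5G38870, AT5G65820, PIP5K5 and FAF2, were chosen after their values were seen. The values of 1 member are not reported here by name, though it is in all counts. The members and lists were chosen with earlier results of these data known. Names, neighbours and sequences come from RefSeq TAIR10.1, which held 1451 of 1462 extension IDs.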

Additional observations from a re-analysis of the deposited data

Results flagged for a closer look

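The double mutants differed from each other, by a test of the difference itself, in 3 of 66 extension ratios of the members, where 5.21% of all extensions were called. The rule had left out extensions raised in a single double mutant. The called ratios are named next. These were AT3G13277 (log2 difference of pho1-7hpr1-5 minus pho1-7tex1-4 of 1.13), BPS2 (AT2G46080, -1.43) and PAL4 (AT3G10340, -1.01), whose call was lost in DESeq2 (adjusted p = 0.354) and without pho1-7tex1-4 replicate 1 or pho1-7hpr1-5 replicate 1. Of 56 downstream genes 2 were called, where 4.09% of all 21972 genes were. The exon counts of MPK12 (AT2G46070) differed by -1.41, and those of ZFP8 (AT2G41940), which lies on the opposite strand from AT2G41945, by 2.05. ZFP8 had 0.645 and 0.507 CPM in pho1-7hpr1-5, 0.0886 and 0.172 in pho1-7tex1-4 and 0.0154 to 0.0989 in the pot controls. Of 65 gene bodies of the members 2 were called, also near the share of all genes. AT3G22970 differed by 1.67 and the non-coding RNA AT2G24545 by 1.48. AT3G22970 had 341.7 and 342.3 CPM in pho1-7hpr1-5 and 107.1 and 108.5 in pho1-7tex1-4, while the folds of its extension ratio were 5.45 and 5.73.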

How the results depend on the processing

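The 66 members came to 59 to 69 when single samples were left out, and 37 were kept in all 14 such sets. With 2-fold in place of 1.5 there were 25. With Col-0 alone as pot control there were 68, of which 56 were among the 66, and with pho1-7 alone 62, of which 58 were. The members called for pho1-7 against Col-0 ranged from 0 to 1 and those for pho1-7hpr1-5 against pho1-7tex1-4 from 2 to 6 without single samples, and without a fold threshold the latter were 16 (13.4% of all extensions). The bodies called ranged from 1 to 4 on plates without single samples, and in pho1-7hpr1-5 there were 5 against the mean of Col-0 and pho1-7. The log2 ratio change of AT4G16260 in pho1-7tex1-4 reversed to -0.41 against pho1-7 alone, whose ratio was above that of Col-0, and for the other results the cause was not tested. AT4G27810 had no value against pho1-7 alone, where it had 0 extension reads. Downstream genes called, on both strands, ranged from 9 to 11, 11 to 12 and 6 to 8 around 10, 11 and 7 without single samples. The same replicate numbers were not taken as pairs: correlations of same-numbered deviations lay between -0.107 and 0.0976 for the extension ratio and between -0.355 and 0.353 for gene counts, and on plates they were 0.151, -0.283 and -0.073 for gene counts. With a replicate block 1 and 3 member ratios, 5, 3 and 3 bodies and 11, 12 and 7 downstream genes were called, and crossing the numbers of pho1-7hpr1-5, an alternative chosen after seeing the data, left 1 and 3 ratios. The AATAAA window before the annotated end nearest the gene start, also chosen after seeing the data, held 6.15%. Of 131 alternative values of the main counts 125 were within 1.5 times the main value (for the share of ends with AATAAA, within its interval). Of the alternative values of other results, 1024 were classed as the same, 23 as weaker, 2 as moved and 1 as reversed. Depth limits large folds: 5 members had 3 or fewer control reads in a comparison, where their folds were 5.10 to 20.0.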
